A study of Mus musculus with 8 samples.

Results

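The 10 genes studied here belong to vasoactive peptide signalling and were followed in mouse mammary basal cells sorted into the G0 and G1 phases of the cell cycle. They were Ramp1, Ramp2, Ramp3, Calcrl and Adm of the calcitonin gene-related peptide (CGRP) and adrenomedullin system, Uts2b of the urotensin system, and Edn1, Ednra, Ednrb and Ece1 of the endothelin system. The 10 genes were chosen by their function and by differences between G1 and G0 that were already known from these counts, out of 54837 gene identifiers in the table. The differences between phases are therefore a description of genes picked with them in view, and the tests printed beside them are not independent evidence. All 10 passed the filter on low counts that left 15192 genes for testing.

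The RNA came from mammary glands of mice labelled C57BL/B6, which carried no treatment in the labels. Both groups were labelled basal cells and differed in the labels by sorted phase alone, with 4 libraries labelled G0 and 4 labelled G1. Each group held runs 1 to 4, and the run number in the titles joins a G0 library to a G1 library. The sources used here do not give the sort markers, the age and sex of the animals, or whether the runs came from separate animals. The p-values below thus reflect variation among these libraries only, some of which may be technical.

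RAMP proteins are single-pass membrane partners that decide which peptide the receptor encoded by Calcrl answers to: with RAMP1 it is a CGRP receptor, and with RAMP2 or RAMP3 an adrenomedullin receptor. Adm encodes adrenomedullin, a vasodilator peptide also made by epithelial cells. Endothelin-1, encoded by Edn1, is cut from its precursor by the protease ECE1 and acts on the G protein-coupled receptors EDNRA and EDNRB, and Uts2b encodes urotensin-2B, a peptide related to the vasoconstrictor urotensin II. Basal cells of the mammary gland are contractile, and Calcrl and Ramp2 are best known from the endothelium of blood and lymphatic vessels.

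The promoters of 4 of the genes are printed because the results turn on them: Ramp1, Uts2b and Ednrb had the clearest differences between phases, and Adm the clearest difference between runs. Each is the 250 bases upstream of the RefSeq start on GRCm38.p6, the assembly also called mm10, written 5′ to 3′ on the gene's strand. Capitals mark matches to any of 7 motifs searched on both strands. Ramp1 lies at chr1:91179572-91179821 on the plus strand, Uts2b at chr16:27370240-27370489 on the minus strand, Ednrb at chr14:103843702-103843951 on the minus strand, and Adm at chr7:110627407-110627656 on the plus strand.
Ramp1: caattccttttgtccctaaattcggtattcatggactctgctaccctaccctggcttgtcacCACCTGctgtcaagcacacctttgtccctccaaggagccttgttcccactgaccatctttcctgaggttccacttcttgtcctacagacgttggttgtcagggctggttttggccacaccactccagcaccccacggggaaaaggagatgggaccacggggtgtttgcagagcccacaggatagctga
Uts2b: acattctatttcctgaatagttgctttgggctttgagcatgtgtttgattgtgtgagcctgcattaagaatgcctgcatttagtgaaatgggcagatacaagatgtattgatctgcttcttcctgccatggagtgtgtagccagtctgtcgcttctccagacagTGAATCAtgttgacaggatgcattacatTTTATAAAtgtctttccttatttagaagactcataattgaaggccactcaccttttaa
Ednrb: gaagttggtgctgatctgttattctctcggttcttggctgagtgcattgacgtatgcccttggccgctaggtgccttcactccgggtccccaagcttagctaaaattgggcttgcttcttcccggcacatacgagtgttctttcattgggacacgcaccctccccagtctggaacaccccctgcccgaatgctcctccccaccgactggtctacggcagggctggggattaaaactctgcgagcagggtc
Adm: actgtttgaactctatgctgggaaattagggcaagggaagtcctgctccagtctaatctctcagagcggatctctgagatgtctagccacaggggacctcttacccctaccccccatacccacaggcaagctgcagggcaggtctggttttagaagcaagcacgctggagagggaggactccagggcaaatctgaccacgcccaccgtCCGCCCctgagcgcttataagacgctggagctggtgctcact
The motifs were the TATA box TATAAA, the hypoxia response core ACGTG, the GC box GGGCGG, the cAMP response element TGACGTCA, the AP-1 site TGANTCA, the E-box CAGGTG bound by SNAI and ZEB factors, and the CArG box of serum response factor. Among all 32851 RefSeq promoter windows of the same length, 12.4% held the TATA box, 16.6% the hypoxia core, 32.7% the GC box, 1.5% the cAMP response element, 6.7% the AP-1 site, 17.2% the E-box and 1.5% the CArG box. In Ramp1 the capitals mark an E-box whose first base is at -188, counted from the start. In Uts2b they mark an AP-1 match from -86 and 2 overlapping TATA matches, on opposite strands, from -58 and -56. In Adm they mark a GC box from -42, and none of the 7 motifs was found in the Ednrb window. The Uts2b window was 39.6% G and C, against 54.0% for Ramp1, 56.8% for Ednrb and for Adm, and a median of 52.4% over all windows. These matches describe letters in a window and say nothing of binding. An entry was found for 9 of the 10 genes, all but Ramp2.

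Library totals ran from 5868728 to 15014104 counts, and 20836 to 26614 gene identifiers had a count in 7 libraries. G0 run 4, the shallowest library, stood apart with 39094 identifiers detected and 8.13% of its counts on the predicted gene Gm10800. That gene also took 1.71% of the counts in G1 run 4 and 1.19% in G0 run 3, and at most 0.0129% in the others. Levels in CPM, counts scaled to a common library size by TMM factors, are used from here on. The basal label was met in all 8 libraries: 7 basal and myoepithelial markers, such as Krt5, Krt14 and Acta2, summed to 18880 to 23466 CPM in G0 and 25806 to 29241 CPM in G1. In bulk RNA, fewer cells of a type and less RNA per cell cannot be told apart.

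By its mean over the 8 libraries, Ece1 was the most abundant of the 10 genes per kilobase of exon and Calcrl the least. In both run 3 libraries Adm, at 42.4 and 41.5 RPKM, was above Ece1, and in G0 run 3 Calcrl, at 1.17 RPKM, was above Ednra, at 0.594 RPKM. In RPKM, which is CPM divided by the kilobases of exon, over the 8 libraries Ece1 had a mean of 32.9 ± 7.03 (SD, n = 8) and Adm 22.2 ± 12.5. Uts2b, at 13.0 ± 5.64 RPKM, and Ramp3, at 12.5 ± 4.86 RPKM, came next. Ramp1 followed at 3.01 ± 1.72 RPKM, Ramp2 at 2.15 ± 1.33 RPKM and Ednrb at 1.94 ± 0.963 RPKM. Ednra was at 1.09 ± 0.329 RPKM, Edn1 at 0.812 ± 0.594 RPKM and Calcrl at 0.358 ± 0.361 RPKM. Every pair of neighbours in this order overlapped in range. Separation appeared only further apart: the lowest Ece1 level (22.8 RPKM) was above the highest Uts2b level (22.0 RPKM), and the lowest Uts2b level (6.32 RPKM) was above the highest Ramp1 level (6.08 RPKM). So the protease and the peptide genes Adm and Uts2b led the order, together with Ramp3, while the receptor genes Calcrl, Ednra and Ednrb lay in its lower part with Edn1.

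**Figure D1:**
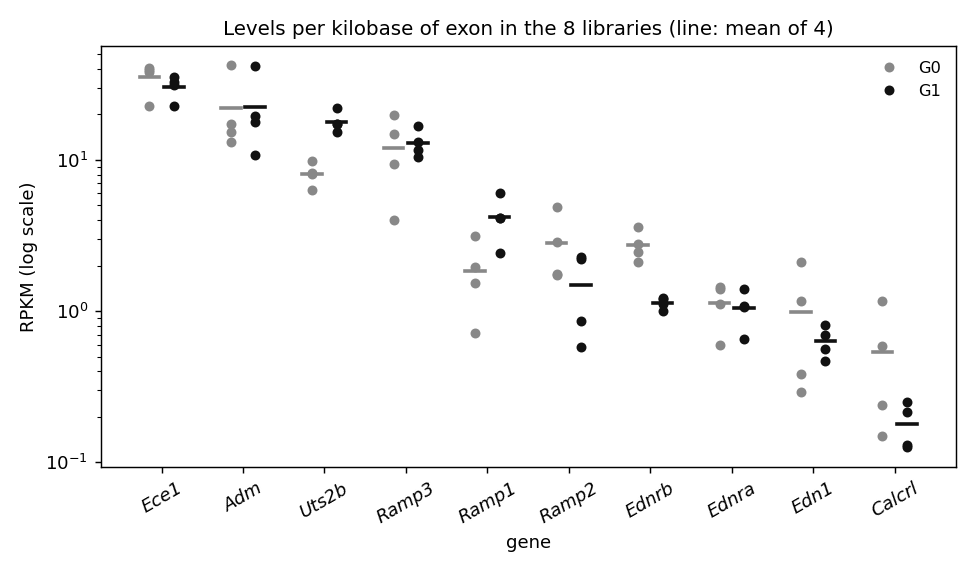
Levels of the 10 genes in RPKM on a log axis; each point is a library (G0 grey, G1 black) and each line the mean of 4. Ece1 has the highest mean, with libraries between 22.8 and 40.8 RPKM, and Calcrl the lowest, between 0.125 and 1.17 RPKM; the top Adm points, at 42.4 and 41.5 RPKM, are those of run 3.

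With the run as a replicate block, Ramp1 (2.37-fold) and Uts2b (2.22-fold) were higher in G1, and Ednrb (2.38-fold) and Ramp2 (2.01-fold) were higher in G0. The other 6 genes did not pass in that fit. In the fit of phase alone no gene passed an adjusted p of 0.05 in edgeR's quasi-likelihood test with Benjamini-Hochberg adjustment, so 0 of 10 members were called against 0% of all 15192 genes. At an unadjusted p under 0.05 that fit held 4 of the 10 members and 425 of all 15192 genes. The 4 were Ramp1, Uts2b, Ednrb and Calcrl, while Ramp2 had an unadjusted edgeR p of 0.0842. DESeq2 with phase alone called 10 genes higher and 24 lower, Uts2b and Ednrb among them. Libraries of the same run deviated together, so the blocked fit is given beside each gene below; it called 2 members higher (0.481% of all genes) and 2 lower (0.764% of all genes). Since the members were picked with these differences known, nothing is read from the counts.

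The CPM of the phases did not overlap for 1 member higher in G1, Uts2b (0.829% of all genes), and for 1 lower, Ednrb (1.17% of all genes). In 5 members the log2 ratio had the same sign in all 4 runs, against 20.8% of all genes: Ramp1 and Uts2b were higher in G1, and Ramp2, Ednrb and Ece1 lower. The median log2 fold change of the 10 in the blocked fit was -0.13, beside 0.01 over all tested genes.

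**Figure D2:**
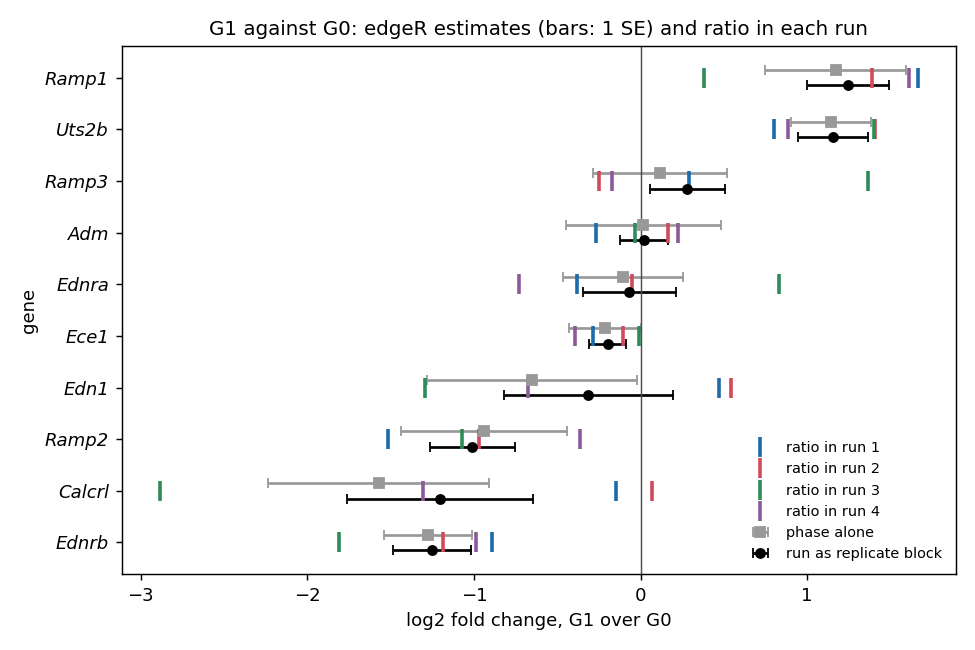
Log2 fold change of G1 over G0 for each gene from the fit of phase alone (grey squares) and with the run as a block (black circles), with bars of 1 SE; coloured ticks are the ratios in single runs. Ramp1 and Uts2b lie to the right of 0 in all 4 runs and Ednrb and Ramp2 to the left, while the ticks of Calcrl, Edn1, Ednra and Ramp3 spread over both sides.

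**Figure D3:**
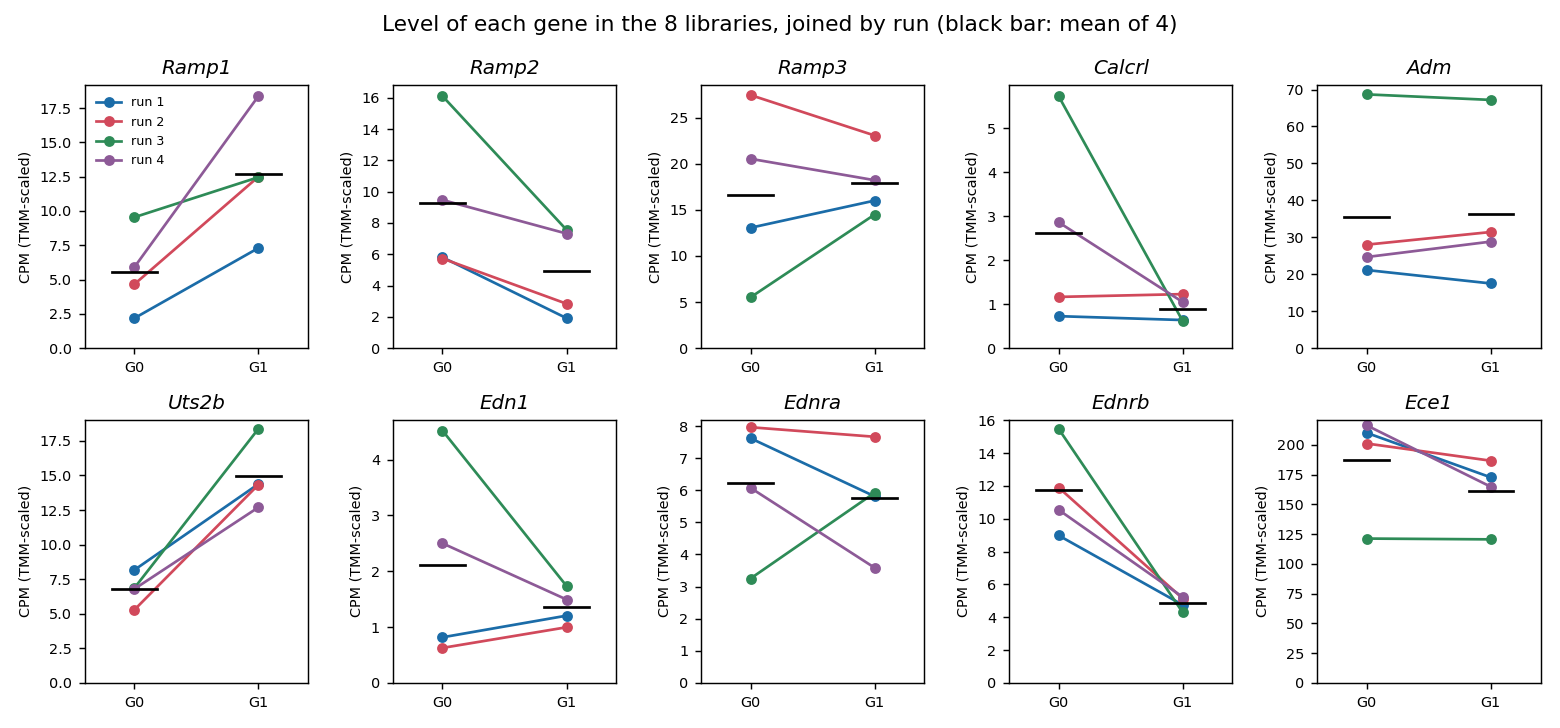
CPM of each gene in G0 and G1, with lines joining the libraries of a run and black bars for the mean of 4. Uts2b and Ednrb have separate phases; for Adm and Ece1, run 3 (green) stands apart in both phases.

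Ramp1 (ENSMUSG00000034353, chr1:91179822-91225196, plus strand), the partner that makes the CGRP receptor, had 2.18, 4.65, 9.54 and 5.9 CPM in G0 runs 1 to 4 and 7.30, 12.5, 12.5 and 18.4 CPM in G1. The G1 library was the higher one in 4 of 4 runs, but the phases overlapped, because G0 run 3 was above G1 run 1. The mean was 5.57 ± 3.07 CPM for the G0 libraries and 12.7 ± 4.53 CPM for the G1 libraries (SD, n = 4 each). The log2 fold change was 1.17 ± 0.42 (SE) with phase alone (adjusted p = 0.9999, edgeR) and 1.25 ± 0.25 with the block (adjusted p = 0.00587). Run 3 had the smallest log2 ratio, 0.38, against 1.39 to 1.66 in the other runs. Without run 4 the blocked change was 1.11 and no longer passed (edgeR adjusted p = 0.122).

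Ramp2 (ENSMUSG00000001240, chr11:101246028-101259546, plus strand), the partner that makes the main adrenomedullin receptor, went the other way. It had 5.81, 5.73, 16.1 and 9.47 CPM in G0 and 1.91, 2.84, 7.56 and 7.32 CPM in G1. G1 was lower in 4 of 4 runs, and the phases overlapped, since G1 runs 3 and 4 were above G0 runs 1 and 2. The means were 9.28 ± 4.88 CPM and 4.91 ± 2.95 CPM. The log2 fold change was -0.94 ± 0.50 with phase alone (adjusted p = 0.9999, edgeR) and -1.01 ± 0.26 with the block (adjusted p = 0.0471). That call was lost when any 1 run was left out, with edgeR adjusted p of 0.158, 0.116, 0.116 and 0.0575 without runs 1 to 4, while the log2 fold change was -0.83, -1.01, -0.98 and -1.23. In the annotation 1103 exon bases of Ramp2 lie on the same strand as exons of Vps25, an ESCRT gene, and reads there cannot be told apart; Vps25 itself was given 15 counts over the 8 libraries.

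Ramp3 (ENSMUSG00000041046, chr11:6658521-6677475, plus strand), the other adrenomedullin receptor partner, had 13.1, 27.5, 5.51 and 20.5 CPM in G0 and 16.0, 23.1, 14.5 and 18.2 CPM in G1. G0 run 3 was the lowest library, and G1 was higher in runs 1 and 3 alone. The means were 16.6 ± 9.47 CPM and 18 ± 3.74 CPM, and the blocked log2 fold change was 0.28 ± 0.22 (edgeR adjusted p = 0.682). Without run 3 it was -0.05. Ramp3 shares 101 exon bases with an opposite-strand pseudogene, and whether reads were counted by strand is not known from the sources used here.

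Because Ramp1 and Ramp2 differed in opposite directions, their ratio separated the phases. Within a library there were 0.375, 0.813, 0.592 and 0.623 Ramp1 counts for each Ramp2 count in G0, and 3.81, 4.41, 1.65 and 2.51 in G1. Every G0 library had fewer Ramp1 than Ramp2 counts and every G1 library had more. This ratio rests on the same counts that chose the genes and carries no test. For levels per kilobase, all annotated exons of a gene were merged, giving 3.02 kb for Ramp1, 3.30 kb for Ramp2 and 1.38 kb for Ramp3. The shares below depend on these lengths, and which transcripts of each gene were present was not tested. On this scale Ramp3 made up most of the summed RPKM of the 3 RAMP genes in 7 libraries. Its share of their summed RPKM was 68.5 ± 23.9% in G0 and 70.0 ± 9.58% in G1. The share of Ramp1 was 12.2 ± 9.51% in G0 and 22.1 ± 5.28% in G1, and that of Ramp2 was 19.3 ± 14.6% and 7.94 ± 4.78%. G0 run 3 was the exception, with 26.2% Ramp1, 40.6% Ramp2 and 33.2% Ramp3. With the length of Ramp2 taken over the exon bases it does not share with Vps25, its share was 25.6 ± 17.3% in G0 and 11.4 ± 6.61% in G1.

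**Figure D4:**
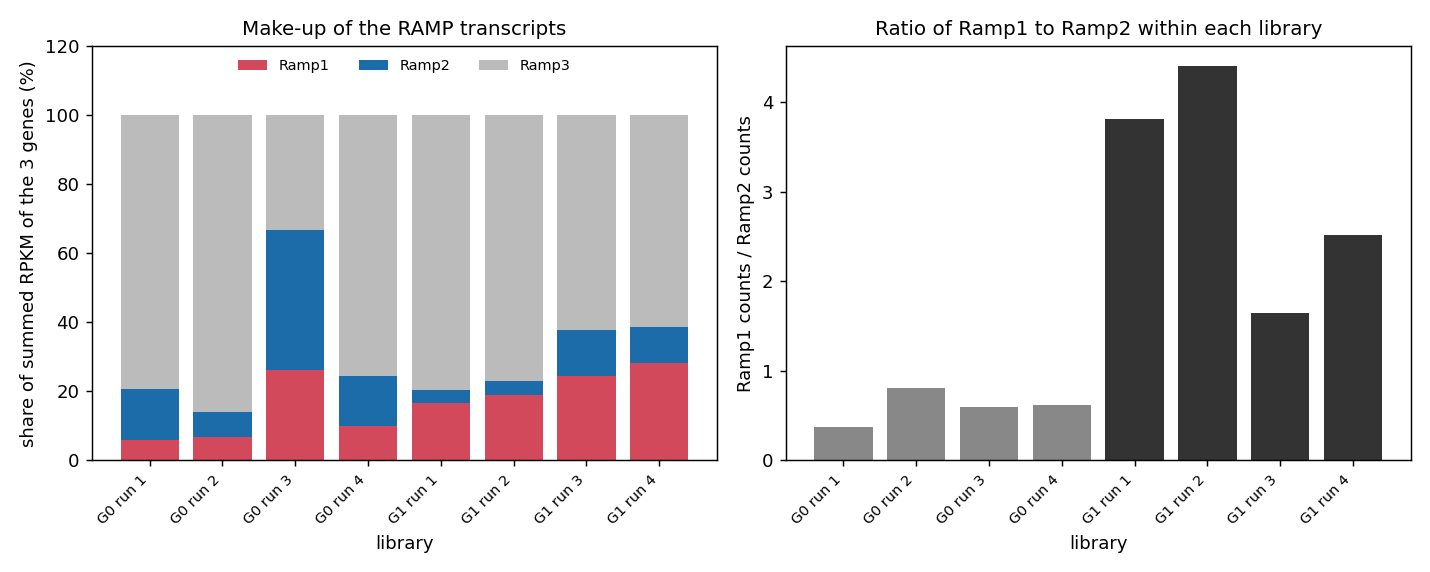
Left, share of Ramp1, Ramp2 and Ramp3 in their summed RPKM for each library; right, Ramp1 counts over Ramp2 counts (G0 grey, G1 black). The ratio is between 0.375 and 0.813 in G0 and between 1.65 and 4.41 in G1, and G0 run 3 has the largest Ramp2 share, 40.6%.

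Calcrl (ENSMUSG00000059588, chr2:84330626-84425411, minus strand), the receptor that all 3 RAMPs join, was near the limit of detection in most libraries. It had 8, 13, 81 and 16 counts in G0 runs 1 to 4, and 9, 16, 6 and 7 counts in G1. In CPM these were 0.726, 1.16, 5.72 and 2.86 in G0 and 0.638, 1.23, 0.613 and 1.05 in G1. G0 run 3 was far above the rest, G0 run 4 was next, and the other 6 libraries lay between 0.613 and 1.23 CPM. The means were 2.62 ± 2.27 CPM and 0.881 ± 0.304 CPM, and the blocked log2 fold change was -1.20 ± 0.56 (edgeR adjusted p = 0.381). Without run 3 it was -0.50. The summed RPKM of the 3 RAMP genes was 33.7 to 135 times that of Calcrl in 7 libraries and 10.3 times in G0 run 3.

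Adm (ENSMUSG00000030790, chr7:110627661-110629820, plus strand) varied more between runs than between phases. It had 21.1, 28.0, 68.7 and 24.7 CPM in G0 and 17.5, 31.4, 67.2 and 28.8 CPM in G1. Run 3 was the highest in both phases, and within each run the phases were close. The means were 35.6 ± 22.2 CPM and 36.2 ± 21.5 CPM, and the blocked log2 fold change was 0.02 ± 0.14 (edgeR adjusted p = 0.978). The GC-box window printed above belongs to this gene.

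Uts2b (ENSMUSG00000056423, chr16:27353322-27370239, minus strand), whose window above holds the AP-1 and TATA matches, rose in the blocked fit and was higher in G1 in 4 of 4 runs. It had 8.16, 5.28, 6.85 and 6.79 CPM in G0 and 14.4, 14.3, 18.4 and 12.7 CPM in G1. The lowest G1 library was above the highest G0 library. The means were 6.77 ± 1.18 CPM and 14.9 ± 2.42 CPM, and the log2 ratios within runs were 0.80, 1.41, 1.4 and 0.89. The log2 fold change was 1.14 ± 0.24 with phase alone (edgeR adjusted p = 0.4996) and 1.15 ± 0.21 with the block (adjusted p = 0.00293). The blocked fit kept the call with any 1 run left out, at edgeR adjusted p from 0.00084 to 0.0254. The receptor gene Uts2r had 17 counts in all 8 libraries, 11 of them in G0 run 3, and the paralogous peptide gene Uts2 had 3, so neither was tested.

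In the endothelin system Ednrb was the only member that passed in the blocked fit. Ednrb (ENSMUSG00000022122, chr14:103814625-103844402, minus strand), the receptor that binds all endothelins and clears them, had 8.98, 11.9, 15.5 and 10.5 CPM in G0 and 4.75, 5.14, 4.29 and 5.23 CPM in G1. Every G0 library was above every G1 library, and the G1 libraries lay close together. The means were 11.7 ± 2.77 CPM and 4.85 ± 0.43 CPM. The log2 fold change was -1.28 ± 0.26 with phase alone (edgeR adjusted p = 0.4996) and -1.25 ± 0.24 with the block (adjusted p = 0.00408). The log2 ratio was largest in run 3, -1.81, and -0.89 to -1.18 in the others. Without run 3 the blocked change was -1.06 and still passed (edgeR adjusted p = 0.0149), as it did without any other run. The RefSeq start of the window printed above lies within the annotated gene, downstream of its outermost start.

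Ednra (ENSMUSG00000031616, chr8:77663031-77724464, minus strand), the receptor of vascular smooth muscle contraction, had 7.62, 7.96, 3.25 and 6.07 CPM in G0 and 5.81, 7.67, 5.92 and 3.59 CPM in G1. The phases overlapped over most of their range. The means were 6.23 ± 2.15 CPM and 5.75 ± 1.67 CPM, with a blocked log2 fold change of -0.07 ± 0.28 (edgeR adjusted p = 0.957). In G0 the mean Ednrb level in RPKM, 2.75 ± 0.649, was above that of Ednra, 1.14 ± 0.392, and in G1 they were 1.14 ± 0.1 and 1.05 ± 0.305.

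Edn1 (ENSMUSG00000021367, chr13:42301476-42307990, plus strand), the ligand gene, had 9, 7, 64 and 14 counts in G0 and 17, 13, 17 and 10 counts in G1. These were 0.816, 0.626, 4.52 and 2.5 CPM in G0 and 1.20, 0.997, 1.74 and 1.49 CPM in G1. As for Calcrl, G0 run 3 was the highest library and G0 run 4 the next. Some hardly detected genes had counts in G0 runs 3 and 4 alone, such as Vip (11 and 6) and Ntsr1 (3 and 12). The part of such counts in the Calcrl and Edn1 values was not tested. The blocked log2 fold change was -0.31 ± 0.51 (edgeR adjusted p = 0.865), and without run 3 it turned to 0.14. Edn1 and Ednra share 35 and 91 exon bases with opposite-strand transcripts of 19 and 26 counts in total.

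Ece1 (ENSMUSG00000057530, chr4:137862237-137965229, plus strand), the activating protease, had 210, 201, 121 and 216 CPM in G0 and 173, 187, 121 and 165 CPM in G1. G1 was lower in 4 of 4 runs, by at most 0.39 on the log2 scale. The means were 187 ± 44.4 CPM and 161 ± 28.5 CPM, and the blocked log2 fold change of -0.20 ± 0.11 did not pass (edgeR adjusted p = 0.502).

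Genes that mark other cell types were read in the same libraries. The 10 blood endothelial markers summed to 158, 278, 259 and 292 CPM in G0 and 28.3, 63.9, 113 and 88.0 CPM in G1. All 10 had a negative blocked log2 fold change, with a median of -1.83, and 9 fell in the blocked fit; Pecam1, an endothelial adhesion molecule, had -1.74 ± 0.19 (edgeR adjusted p = 4.33e-06). None of the 10 was at 0 in any library. Ramp2, Calcrl and Ednrb had their higher means in the same phase as these markers, and the part of endothelial RNA in their differences was not tested. Ramp1 and Uts2b were higher in the phase in which these markers were lower. That was also the phase with the higher basal sums given above, which did not overlap between phases. Of the 7 basal and myoepithelial markers 2 rose in the blocked fit, Acta2 by 0.63 ± 0.10 (edgeR adjusted p = 0.000642) and Cnn1 by 0.55 ± 0.10 (0.00324), both of the contractile apparatus, and the median of the list was 0.21. The keratin genes Krt5 and Krt14 and the transcription factor gene Trp63 were near level, at 0.05, 0.05 and -0.008 in the blocked fit. Myh11, at 0.32, and Oxtr, at 0.21, were not called. The higher sum was therefore not shared by every gene of the list. The part of cell make-up in the Ramp1 and Uts2b differences was not tested.

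The lymphatic endothelial markers Lyve1, Prox1 and Mmrn1 were high in 1 library. G0 run 3 had 1035 counts of Lyve1, 201 of Prox1 and 79 of Mmrn1, against at most 26, 32 and 12 in any other library. The whole list of 6 summed to 118 to 281 CPM in G0 and 161 to 202 CPM in G1; of its 3 tested genes Flt4 fell and Reln rose in the blocked fit. Calcrl, Edn1, Ramp2, Ednrb and Adm were each highest in that library. So were the fibroblast markers, whose sum over 8 genes was 904 CPM there and 208 to 609 CPM elsewhere, and the luminal markers, at 2724 CPM there and at most 2356 CPM elsewhere. Adm was at 68.7 CPM in G0 run 3 and at 67.2 CPM in G1 run 3. In G1 run 3 Lyve1, Prox1 and Mmrn1 had 2, 2 and 0 counts, and the fibroblast and luminal sums were 609 and 2356 CPM. The part of these cells' RNA in the G0 run 3 values was not tested. Without run 3 the blocked changes were -0.50 for Calcrl, 0.14 for Edn1, -0.98 for Ramp2 and -1.06 for Ednrb on the log2 scale.

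**Figure D5:**
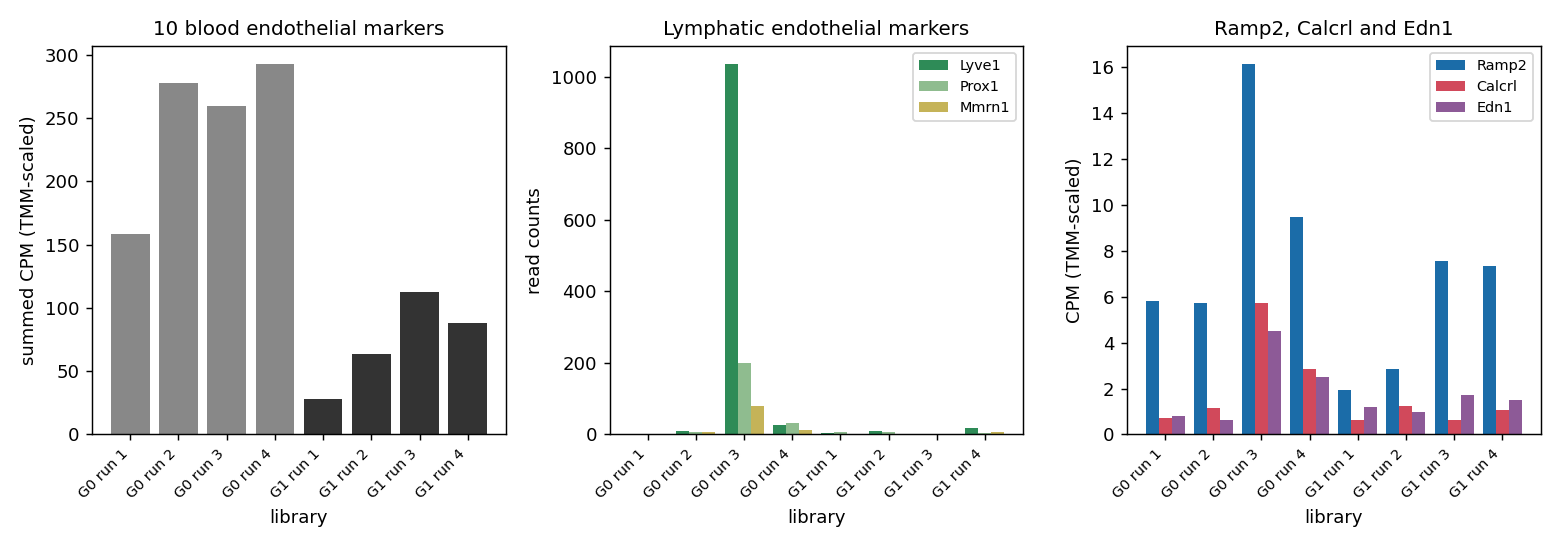
Left, summed CPM of 10 blood endothelial markers in each library (G0 grey, G1 black); middle, read counts of 3 lymphatic endothelial markers; right, CPM of Ramp2, Calcrl and Edn1. The left sum is 158 to 292 CPM in G0 and 28.3 to 113 CPM in G1, and G0 run 3 is highest for the lymphatic markers and for all 3 genes on the right.

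Most fibroblast markers were lower in G1. Of the 8, 7 had a negative blocked log2 fold change and 4 fell, with a median of -0.90. Among those that fell were the collagen gene Col1a1, by 1.11 on the log2 scale, and Lum, a matrix proteoglycan gene, by 1.61. Dcn, with the highest mean level of the list, went the other way, from 178 CPM in G0 to 255 CPM in G1. Its blocked log2 fold change was 0.58 ± 0.16 (edgeR adjusted p = 0.0973). The list summed to 208, 300, 904 and 308 CPM in G0 runs 1 to 4 and 243, 320, 609 and 445 CPM in G1. Ramp2, Calcrl and Ednrb had their higher means in the same phase as most of these markers too, and their part was not tested. Of 6 tested pericyte and vascular smooth muscle markers none was called, with sums of 27.8 to 60.9 CPM in G0 and 25.8 to 36.9 CPM in G1. Ednrb is also known from Schwann cells and melanocytes, whose markers summed to 337 to 403 CPM in G0 and 325 to 393 CPM in G1, with 0 of 6 tested genes called. Most of that sum was Sox10, which mammary basal cells also express; the melanocyte enzyme gene Tyrp1 was at 0 in 7 libraries and Dct at 0 in 6. The 5 tested immune markers had no call, with sums of 64.9 to 366 CPM (G0) and 44.7 to 389 CPM (G1), and the 7 tested luminal markers had none.

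Differences between runs were tested with the phase as a covariate, a contrast that did not choose the genes. The run term passed for 5 of the 10 members, against 35.6% of all genes. Adm had the largest F of the 10, 33.0 (edgeR adjusted p = 3.73e-07), and was 1.82 higher on the log2 scale in run 3 than in run 1. Ramp2 passed at an adjusted p of 0.000987 and was 1.68 higher in run 3 than in run 1 and 1.28 higher in run 4, in edgeR. Ramp1 passed at 0.00836, lowest in run 1, Ramp3 at 0.00954 and Ece1 at 0.00366, the last 2 lowest in run 3. Uts2b (edgeR adjusted p = 0.640) and Ednrb (0.757), the genes whose phases did not overlap, did not pass. Nor did Calcrl (0.230), Edn1 (0.104) and Ednra (0.258). Without run 3, Adm (edgeR adjusted p = 0.0968) and Ece1 (0.983) no longer passed, while Ramp1, Ramp2 and Ramp3 still did. That fit had fewer samples, so a lost call does not show that no run difference was left. With all runs, Adm was also 0.62 higher on the log2 scale in run 2 than in run 1, and 0.47 higher in run 4. Without run 1, Ramp1 no longer passed (0.393).

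The remaining genes of these pathways were listed by function. Of 9 other genes of the CGRP and adrenomedullin system, 5 were tested and 0 were called in either fit, with a median blocked log2 fold change of 0.02. Ackr3, a scavenger receptor that takes up adrenomedullin, was well expressed, with 168 ± 35.7 CPM (G0) and 176 ± 22.3 CPM (G1). Cpe, a peptide-trimming carboxypeptidase, had -0.46 ± 0.24 (edgeR adjusted p = 0.477) and -0.06 without run 3. Pam, which amidates adrenomedullin and CGRP, had -0.16 ± 0.15 (edgeR adjusted p = 0.734), and Crcp, a protein that couples the CGRP receptor to signalling, 0.17 ± 0.15 (0.722). The CGRP genes themselves were hardly detected, with 11 counts of Calca and 7 of Calcb over 8 libraries. Adm2 had 30 counts and Calcr 4.

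Of 8 other genes of the endothelin and urotensin system, 3 were tested and 0 were called, with a median of -0.06. The precursor-cleaving protease gene Furin had -0.23 ± 0.12 (edgeR adjusted p = 0.463), and the membrane protease genes Mme and Ecel1 had -0.06 ± 0.13 (0.895) and -0.05 ± 0.43 (0.981). Edn2 had 41 counts, Edn3 9 and Ece2 8 over 8 libraries, too few to test. Of 34 other vasoactive peptide, receptor and protease genes 12 were tested and 0 called, with a median of -0.13; the peptide gene Npy had -0.43 ± 0.24 (edgeR adjusted p = 0.499; -0.07 without run 3), the angiotensin receptor-binding gene Agtrap 0.33 ± 0.20 (0.525) and the receptor gene Vipr1 0.79 ± 0.48 (0.544).

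Downstream, 18 of 20 nitric oxide and cyclic nucleotide genes were tested, with a median of -0.12, and 1 fell in the blocked fit. This was Adcy4, an adenylyl cyclase that makes cyclic AMP, with 12.4 ± 6.48 CPM (G0) and 4.53 ± 2.19 CPM (G1). Its blocked log2 fold change was -1.44 ± 0.24 (edgeR adjusted p = 0.0014); with phase alone it was -1.46 ± 0.47 (adjusted p = 0.9999). Adcy4 was higher in the same phase as the blood endothelial markers, and their part in it was not tested. Of 19 G protein, phospholipase, arrestin and receptor kinase genes all were tested and 0 were called, with a median of 0.04. The receptor kinase gene Grk5 had 0.69 ± 0.28 (edgeR adjusted p = 0.293), Gnas, which encodes the stimulatory G protein that couples CGRP and adrenomedullin receptors to adenylyl cyclase, 0.18 ± 0.10 (0.509), and the arrestin gene Arrb1 0.20 ± 0.13 (0.573).

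The genes most like Ramp1 and Uts2b were sought by Pearson's r of log2 CPM over the 8 libraries, given as a description since all points share the same libraries. For Ramp1 they were Alcam, a cell adhesion molecule (r = 0.951), Gpr180 (0.913) and Ogt, the O-GlcNAc transferase (0.907), among 9382 candidates. For Uts2b they were Ccnd2, cyclin D2 of the G1 phase (r = 0.961), Tpm2, a tropomyosin of the contractile apparatus (0.938), and Mrpl55, a mitochondrial ribosomal protein gene (0.925). Since Ramp1 and Uts2b were picked for their phase difference, genes that follow them share it by choice, and their log2 fold changes in the blocked fit carry no test: 0.73 for Ccnd2, 0.47 for Tpm2, 0.46 for Mrpl55, 0.57 for Alcam, 0.31 for Gpr180 and 0.21 for Ogt.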

How the data were processed

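The deposited values were raw counts, whole numbers per Ensembl gene with no normalization, in 1 table with a column for each library. The submitters' processing notes name Trimmomatic 0.35, STAR 2.5.2a and the mm10 build. The labels' protocols give oligo-dT selection, a stranded TruSeq kit and paired-end HiSeq reads. How reads were assigned to genes, by which program, strand setting and annotation, is not given in the sources used here. Symbols matched 54808 of 54837 identifiers, and positions and exon lengths are those of GENCODE M21.

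Counts were tested with edgeR 4.0.16 (R 4.3.3): TMM scaling, filterByExpr by phase, robust quasi-likelihood fits and two-sided Benjamini-Hochberg adjusted p over 15192 genes, at 0.05. An SE was obtained by dividing the size of the log2 fold change by the root of its F. Ratios within runs used a prior count of 2. RPKM is CPM over kilobases of exon, with all annotated exons of a gene merged. The fits were first tested on simulated data.

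The main model held phase alone. Deviations from phase means correlated at 0.668, 0.470, 0.638 and 0.437 between libraries of the same run and at most 0.0971 between different runs, so a blocked fit stands beside it; the pairing comes from the run numbers in the titles. The block lowered the biological coefficient of variation from 34.9% to 16.9%. No library was a copy of another: chi-square per degree of freedom, near 1 for pure sampling, was 21.7 to 95.1 between libraries of a phase. The alternatives used DESeq2 1.42.0, limma 3.58.1 (voom), RLE scaling, other filters on low counts and left-out libraries.

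The members and lists were chosen with earlier results of these data known. From each pathway list every called gene is named, otherwise the 3 tested genes with the smallest p in the blocked fit; Ackr3 and the untested partner genes are named outside this rule, with their values seen. For Ramp1 and Uts2b the 3 most correlated genes are named, among those averaging 3 or more in log2 CPM and without predicted (Gm and Rik) symbols.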

Additional observations from a re-analysis of the deposited data

Results flagged for a closer look

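Among 20 groups of 4 libraries (10 genes in each phase), 2 had a library far from the other 3, and both times it was G0 run 3. Chance flags about 1 group in 20. Adm was at 68.7 CPM in G0 run 3, with a gap of 0.856 of the group's range to the nearest library. Ece1 was at 121 CPM in G0 run 3, with a gap of 0.840 of the range. The G1 libraries of run 3 had similar levels, 67.2 CPM for Adm and 121 CPM for Ece1, and the run term passed for both genes.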

How the results depend on the processing

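No gene was called with phase alone in edgeR, nor with RLE factors, limma-voom, a minimum of 10 counts in all libraries (which left out Calcrl and Edn1) or any 1 library left out. Calls higher and lower in G1 were 14 and 73 with no low-count filter (0 and 0 members) and 10 and 24 with DESeq2 (1 and 1 members). With the replicate block they were 73 and 116 (2 and 2 members), with DESeq2 and the block 97 and 136 (2 and 1), with limma-voom and the block 77 and 134 (2 and 2), with RLE factors and the block 74 and 123 (2 and 2), and with the 10-count minimum and the block 53 and 92 (2 and 2). The member lost under DESeq2 was Ramp2 (adjusted p = 0.0523). Blocked fits without run 1, 2, 3 or 4 called 99 and 175, 63 and 90, 73 and 144, and 21 and 76 genes, with 2, 2, 2 and 1 members higher and 1 lower in each; without run 4 Ramp1 was lost. These fits have fewer samples. The run term passed for 5411 genes and 5 members, and for 2231 and 3 without run 3 (2231 to 5379 and 3 to 5 over the runs left out). For the differences between settings other than left-out libraries, the cause was not tested.

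The signs of small changes turned. With 1 library left out of the fit of phase alone, log2 fold changes ran from -0.46 to 0.56 for Adm, -0.32 to 0.052 for Ednra, -0.18 to 0.49 for Ramp3, -0.95 to 0.11 for Edn1, -0.79 to 0.42 for Ecel1, -0.051 to 0.38 for Agtrap, -0.084 to 0.42 for Arrb1 and -0.18 to 0.18 for Mme. In blocked fits without a run, Adm was -0.029 (run 2) and -0.051 (run 4), Ednra 0.057 (run 1) and 0.10 (run 4), Ramp3 -0.053, Edn1 0.14 and Mme 0.044 (run 3), Mme 0.036 (run 4), and Ecel1, -0.046 with all runs, was -0.46, 0.15, -0.14 and 0.35 without runs 1 to 4. Sizes of uncalled pathway genes also moved: without run 3 Cpe was -0.058, Npy -0.070, Agtrap 0.058 and Vipr1 0.33, without run 4 Furin was -0.088 and Vipr1 1.27, without run 2 Grk5 was 0.40 and Pam -0.054. Adm was -0.0032 with the 10-count minimum, -0.0015 with that and the block, and -0.046 with limma-voom, Ednra 0.023 with limma-voom, and Mme 0.041 with no low-count filter. Ecel1, 0.025 with phase alone, was -0.046 with the block, -0.0090 with DESeq2, -0.016 with DESeq2 and the block, and -0.047 with RLE and the block. The log2 fold changes of Ramp1, Ramp2, Uts2b, Ednrb and Calcrl kept their sign in every fit that tested them.

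Depth limits Calcrl and Edn1 most: each had fewer than 20 counts in 7 libraries. Leaving out 1 G0 or G1 library used a spread pooled over the remaining 7.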
